A study of Mus musculus with 30 samples.

Results

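The 9 genes described here, Mrc1, Cd163, Folr2, Lyve1, Mertk, Msr1, Marco, Retnla and Maf, are markers of tissue-resident and scavenger macrophages in the mouse. They were taken by symbol from a table of 55291 gene symbols, and all 9 were present. RNA-seq had been made from 30 libraries, 3 for each of 10 tumour lines: the colon carcinoma MC38 and its ovalbumin-carrying derivative MC38OVA, the mammary carcinoma EMT6, the Lewis lung carcinoma LL2, the colon carcinoma CT26 and its derivative CT26NYESO1 named for the antigen NY-ESO-1, the fibrosarcoma CMS5a, the renal carcinoma Renca, and the melanomas B16F1 and B16F10. Tumours grew under the skin of BALB/cJ or C57BL/6J mice, and RNA came from digested tumours whose cell type is labelled as CD45+ infiltrating immune cells. The labels mention injection of OK-432, a killed streptococcal preparation, into tumours of some mice. They tie neither this treatment nor the host strain to libraries, so treatment is unknown for every group. Host strain is not labelled for any group and cannot be told apart from line. No label says whether the 3 libraries of a line came from separate mice, and p-values then measure only the spread between these libraries, which may be technical.

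Most organs hold macrophages that live there for long periods and clear debris, dying cells and modified proteins through dedicated surface receptors. Mrc1 (the mannose receptor CD206), Cd163 (the haemoglobin-haptoglobin receptor), Folr2 (a folate receptor) and Lyve1 (a hyaluronan receptor) are used together to recognise such cells, often near blood vessels. Msr1 and Marco are class A scavenger receptors, Mertk is a receptor tyrosine kinase through which dying cells are engulfed, Retnla is a secreted protein induced by interleukin-4, and Maf is a transcription factor of the macrophage lineage. In tumours several of these genes are often read as marks of macrophages that take up debris and dampen immune responses. Whether the macrophages measured here were resident or recently recruited was not tested.

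The promoters of 4 members are shown, since Mrc1 and Cd163 had like profiles over the lines while Marco and Retnla followed profiles of their own. Each is the stretch before the RefSeq start in GRCm38.p6, the build called mm10, read 5′ to 3′ on the gene's strand and ended where the annotated transcript begins. Capitals mark matches, on either strand, to a PU.1 core (GAGGAA), a STAT6 site (TTC and GAA with 4 bases of any kind between them) or a Maf half-site (TGCTGA). The Mrc1 stretch is chr2:14229164-14229391 on the plus strand, that of Cd163 chr6:124304401-124304650 on the plus strand, that of Marco chr1:120505025-120505274 on the minus strand and that of Retnla chr16:48842359-48842550 on the plus strand.
Mrc1: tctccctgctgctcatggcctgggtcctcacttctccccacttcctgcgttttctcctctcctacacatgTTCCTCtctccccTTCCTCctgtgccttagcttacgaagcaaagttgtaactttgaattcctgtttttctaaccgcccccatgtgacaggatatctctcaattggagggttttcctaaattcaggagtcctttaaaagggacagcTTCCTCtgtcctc
Cd163: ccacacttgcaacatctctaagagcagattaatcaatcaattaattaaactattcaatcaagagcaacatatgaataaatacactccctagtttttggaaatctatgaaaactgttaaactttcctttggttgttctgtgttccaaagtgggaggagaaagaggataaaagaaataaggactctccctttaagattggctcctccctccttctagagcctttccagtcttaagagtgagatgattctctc
Marco: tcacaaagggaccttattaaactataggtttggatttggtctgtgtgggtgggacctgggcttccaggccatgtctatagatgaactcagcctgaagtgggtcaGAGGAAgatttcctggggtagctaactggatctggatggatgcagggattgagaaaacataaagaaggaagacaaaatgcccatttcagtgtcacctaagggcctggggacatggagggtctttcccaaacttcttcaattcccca
Retnla: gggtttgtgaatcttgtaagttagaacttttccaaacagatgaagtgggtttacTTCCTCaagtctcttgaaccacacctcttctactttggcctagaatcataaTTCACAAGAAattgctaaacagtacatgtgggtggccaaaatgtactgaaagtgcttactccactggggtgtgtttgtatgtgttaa

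Mrc1 held 3 PU.1 cores, Marco held 1, Retnla held 1 beside 1 STAT6 match whose first base lay 145 bases before the RefSeq start, and Cd163 held none of the 3 motifs. The 250 bases before the start were searched, of which the Retnla print leaves off 58 that hold a Maf half-site. Over 32851 promoter windows of 250 bases before a start, 23.3% held the PU.1 core, 5.85% the STAT6 letters and 16.1% the Maf half-site. The PU.1 and STAT6 letters can overlap, since both patterns hold GAA or, on the other strand, TTC. The table of promoters matched 6 of the 9 members. Such matches describe these letters only, and no binding was measured.

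Levels are in TPM, shares of all transcripts scaled by gene length and to the same total in each library. Genes at 1 TPM or more in each library numbered 12065 to 14602, and mitochondrially encoded transcripts took 9.17 to 39.0% of TPM. Libraries of 1 line correlated at 0.950 to 0.994 over genes on the log2 scale, and 0 pairs of libraries were identical. Ptprc, the gene for CD45, ranged from 2.7 to 215 TPM, and transcripts of other cells were present despite the labelled cell type. The 6 melanocyte markers summed to 8950 to 12934 TPM in B16F10 and to 1429 to 6741 TPM in B16F1, and line means were 4.68 to 18.9 TPM elsewhere. The 6 fibroblast markers summed to a mean of 4841 TPM in CMS5a and 3775 TPM in LL2, and to 9.92 TPM in B16F10. Such levels were thus measured beside very different amounts of other RNA, and in bulk RNA fewer cells of a type and less RNA per cell cannot be told apart. Read counts and depth are unknown, so no counting interval can be given for a single value.

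All 9 members differed between the lines by the F test on log2(TPM + 1), and so did 85.5% of the 17944 genes tested, a count that says little about the members in particular. The median range of line means was 3.24 on the log2 scale for the members and 1.71 for all genes tested. Msr1, Folr2 and Mrc1 had ranges of 4.40, 4.20 and 4.13 (log2), Lyve1 and Cd163 3.24 each, Mertk 3.2, Retnla 3.38, Maf 1.98 and Marco 1.45. Summed over the 9 genes, the level ran from 31.5 ± 11.7 TPM in B16F10 to 386 ± 38.6 TPM in LL2 (SD, n = 3 each), and the other line means were 84.2 to 234 TPM. The pan-macrophage gene Adgre1, which encodes F4/80, was likewise lowest in B16F10, at 8.07 ± 5.89 TPM, and highest in LL2, at 77.7 ± 6.60 TPM (SD, n = 3 each).

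**Figure D1:**
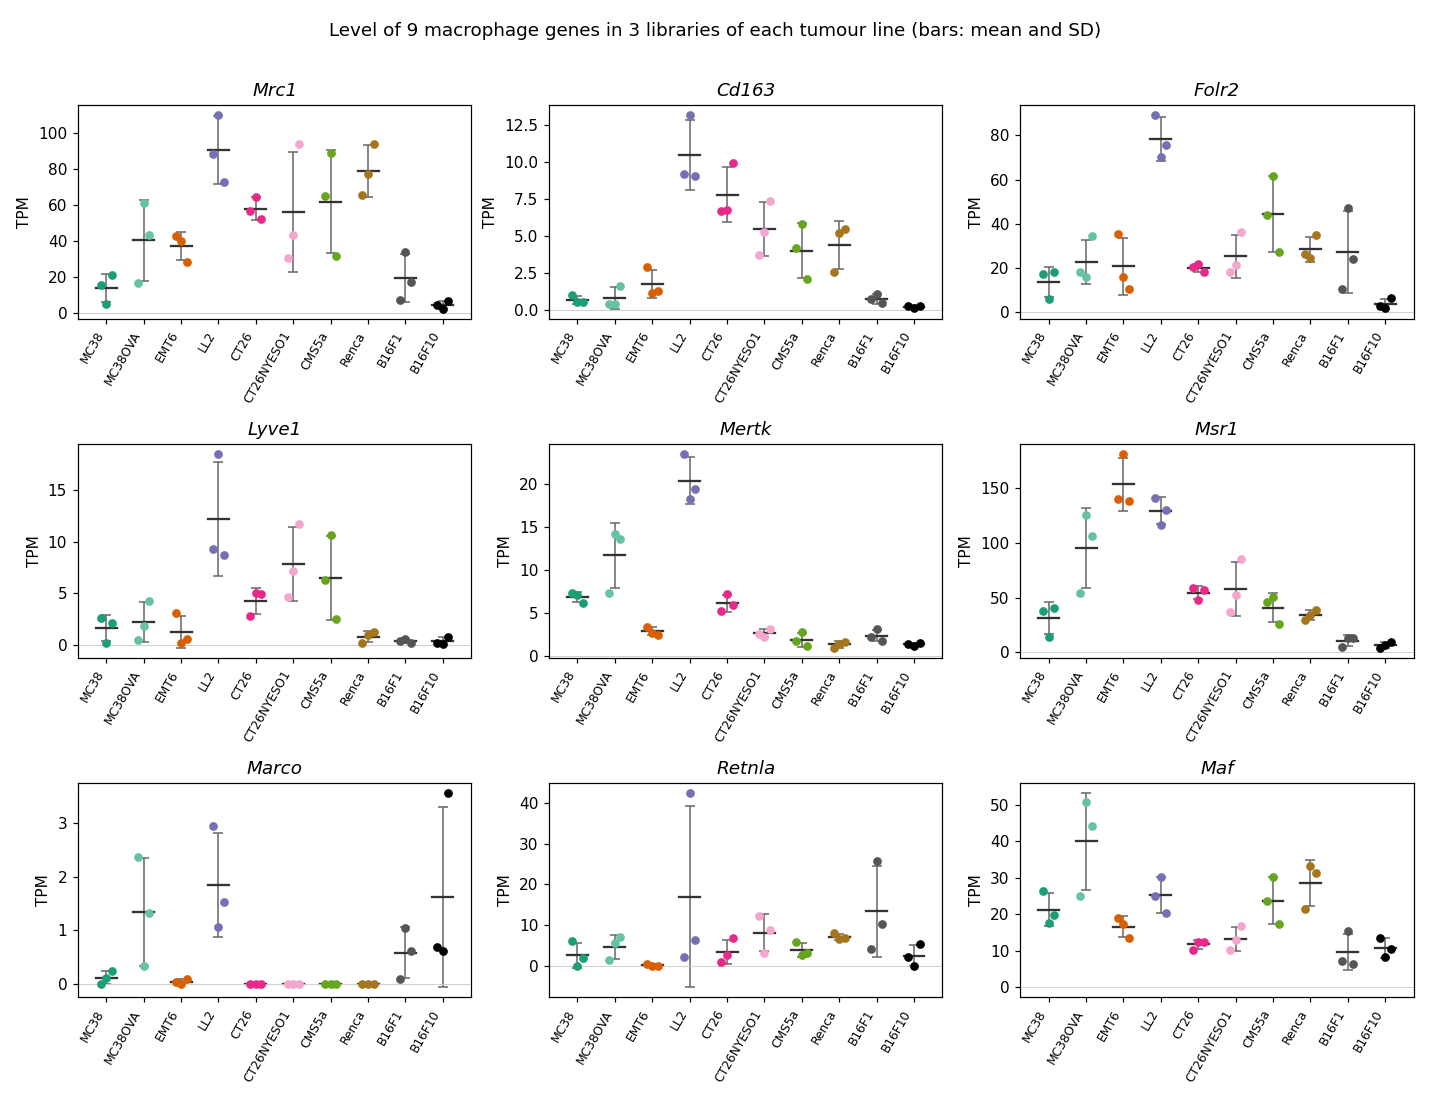
TPM of each of the 9 genes by line, on linear axes, with 1 point per library and bars for the line mean and SD (n = 3). LL2 stood at or near the top for Mrc1, Cd163, Folr2, Lyve1 and Mertk, and the EMT6 libraries stood at the top for Msr1; B16F10 was lowest for Mrc1, Cd163, Folr2, Lyve1 and Msr1 by line mean.

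Each line was then set against the mean of the other 9, with a call at an adjusted p under 0.05 and a log2 difference of at least 1. Of 90 gene and line combinations, 34 passed, 17 higher and 17 lower, against 16.8% of combinations over all genes tested. In LL2 7 of 9 members were higher and none lower, where 7.98% of all genes were higher and 6.53% lower, and the members' median difference was 1.81 against -0.06 for all genes (log2). In B16F10 6 of 9 were lower and none higher, where 23.2% of all genes were lower and 5.28% higher, with medians of -1.47 and -0.48. Of all genes called in B16F10 18.6% were higher, and 41.3% after scaling by median ratios, which moved the median of all genes there by 0.50 and left 5 of the 6 members lower. B16F1 had 5 lower and 1 higher, beside backgrounds of 13.2% and 8.52%. MC38OVA had 3 higher and 1 lower (10.2% and 3.59% of all genes), MC38 none higher and 2 lower (8.24% and 4.06%), and Renca 1 higher and 2 lower (12.4% and 10.5%). EMT6 had 1 higher and 1 lower (10.2% and 4.70%), CMS5a 2 higher and none lower (9.23% and 4.49%), CT26 1 higher and none lower (8.25% and 4.91%), and CT26NYESO1 likewise 1 and none (6.84% and 5.71%). In LL2 the other 2 members, Retnla and Maf, differed by 1.19 (adjusted p = 0.098) and 0.51 (adjusted p = 0.052) on the log2 scale and were not called.

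**Figure D2:**
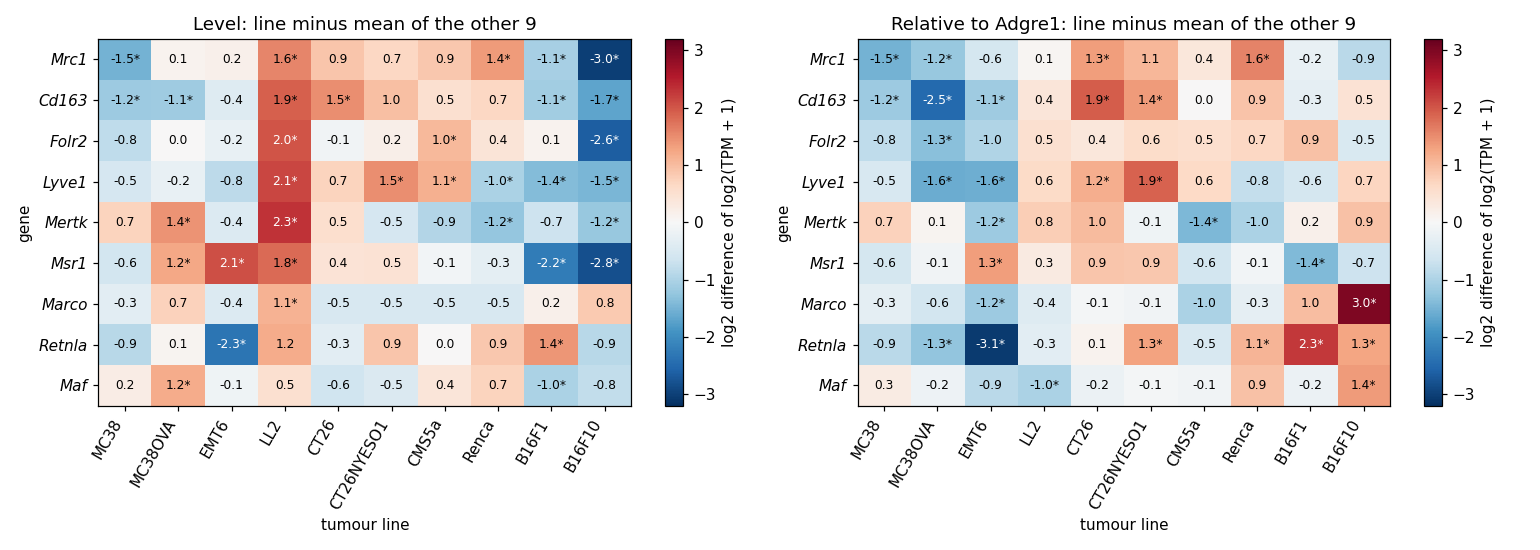
Log2 difference of each member in each line from the mean of the other 9 lines, by level at left and relative to Adgre1 at right, coloured by sign and size, with an asterisk at each call. At left LL2 holds 7 of the 17 higher calls, and B16F10 and B16F1 hold 11 of the 17 lower calls.

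Mrc1, on chromosome 2 from 14229392 to 14332057 (mm10, plus strand), was at 88.6, 110.4 and 73.1 TPM in LL2 and at 65.6, 77.5 and 94.2 TPM in Renca. It was at 64.8, 89.2 and 31.8 TPM in CMS5a, 56.8, 64.7 and 52.1 TPM in CT26, and 30.8, 43.4 and 94.1 TPM in CT26NYESO1. At the other end it was at 15.4, 5.27 and 21.0 TPM in MC38, 7.20, 34.0 and 17.2 TPM in B16F1, and 4.47, 2.28 and 6.67 TPM in B16F10. The order of lines was thus gradual for this mannose receptor: each line's range overlapped that of the next line in all 9 neighbouring pairs, while LL2 and Renca lay clear of MC38 and both melanomas. Against the other lines Mrc1 was higher in LL2 by 1.57 ± 0.38 (log2, SE, adjusted p = 0.0012) and in Renca by 1.36 ± 0.38 (adjusted p = 0.0030). It was lower in B16F10, by -3.02 ± 0.38 (adjusted p = 1.0e-07), in MC38, by -1.52 ± 0.38 (adjusted p = 0.0018), and in B16F1, by -1.07 (adjusted p = 0.017). Without the second MC38 library the MC38 difference was -0.99 (adjusted p = 0.075), without the first B16F1 library the B16F1 difference was -0.53 (adjusted p = 0.28) and without the third -1.11 (adjusted p = 0.050), and without both melanomas the Renca difference was 0.87 (adjusted p = 0.030).

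Cd163, on chromosome 6 from 124304656 to 124330527 (plus strand), was a low transcript with a wide spread between lines. It was at 9.19, 13.2 and 9.04 TPM in LL2, 6.67, 6.78 and 9.95 TPM in CT26, and 3.74, 5.29 and 7.36 TPM in CT26NYESO1. Renca was at 2.53, 5.22 and 5.46 TPM, CMS5a at 4.15, 5.80 and 2.05 TPM, and EMT6 at 2.86, 1.13 and 1.26 TPM. The 4 remaining lines were near or below 1 TPM, at 0.366, 0.347 and 1.61 TPM in MC38OVA, 0.988, 0.493 and 0.524 TPM in MC38, 0.712, 1.06 and 0.422 TPM in B16F1, and 0.257, 0.0872 and 0.264 TPM in B16F10. All libraries of LL2, CT26, CT26NYESO1, Renca and CMS5a lay above all libraries of these 4 lines. Cd163 was higher in LL2 by 1.91 ± 0.23 (adjusted p = 1.2e-07) and in CT26 by 1.48 ± 0.23 (adjusted p = 6.4e-06) on the log2 scale. It was lower in B16F10 by -1.69 (adjusted p = 4.1e-07), and less so in MC38 by -1.17 ± 0.23 (adjusted p = 0.00016), its derivative MC38OVA by -1.14 ± 0.23 (adjusted p = 0.00020) and B16F1 by -1.12 (adjusted p = 0.00017). The call in MC38OVA missed the fold threshold without its first or second library, at -0.99 and -0.98, and so did the call in B16F1 without the third library of that line (-0.99) and, at just under 1 in size, after scaling by median ratios.

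Folr2, on chromosome 7 from 101839988 to 101857194 (minus strand), stood apart in LL2, at 89.4, 70.1 and 75.6 TPM, with every other library at or below 61.6 TPM. CMS5a was at 44.1, 61.6 and 27.0 TPM, B16F1 at 10.4, 47.3 and 24.1 TPM and Renca at 26.1, 24.4 and 35.0 TPM. The lowest libraries were those of B16F10, at 2.72, 2.02 and 6.13 TPM, and 1 library of MC38, at 5.95 TPM. Only the gap between LL2 and CMS5a separated neighbouring lines in the order. Folr2 was higher in LL2 by 2.02 ± 0.34 (adjusted p = 2.4e-05) and lower in B16F10 by -2.64 ± 0.34 (adjusted p = 2.1e-07). Its difference in CMS5a, 1.05 ± 0.34 (adjusted p = 0.015), fell to 0.77 (adjusted p = 0.15) without the second CMS5a library and to 0.75 (adjusted p = 0.044) without both melanomas. The 2 melanoma lines differed from each other for this folate receptor, as described with the related lines.

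Lyve1, on chromosome 7 from 110850607 to 110863239 (minus strand), was at 9.27, 18.5 and 8.72 TPM in LL2 and at 4.62, 7.15 and 11.8 TPM in CT26NYESO1. CMS5a was at 6.34, 10.7 and 2.57 TPM and CT26 at 2.81, 5.02 and 4.93 TPM, while Renca was at 0.222, 0.939 and 1.30 TPM. B16F1 and B16F10 were at 0.0806 to 0.797 TPM in their 6 libraries, and the libraries of MC38, MC38OVA and EMT6 spread from 0.164 to 4.31 TPM. Lyve1 was higher in LL2 by 2.14 ± 0.37 (adjusted p = 2.6e-05), in CT26NYESO1 by 1.49 ± 0.37 (adjusted p = 0.0016) and in CMS5a by 1.15 ± 0.37 (adjusted p = 0.013). It was lower in B16F1, by -1.39 (adjusted p = 0.0021), in B16F10, by -1.47 (adjusted p = 0.00097), and in Renca, by -1.01 ± 0.37 (adjusted p = 0.020). The CMS5a call was lost without its second library (0.75, adjusted p = 0.18), without its first (1.08, adjusted p = 0.063) and without both melanomas (0.81, adjusted p = 0.096), and the Renca call without its first library (-0.74, adjusted p = 0.16) and in 12 more of the 30 fits that left out 1 library, at -0.95 to -1.0. The Renca call of Lyve1 was also lost with a pseudocount of 0.1 (-1.39, adjusted p = 0.064) and without a filter (-1.01, adjusted p = 0.055). Scaling by median ratios took it to -0.95, under the fold threshold. Renca thus joined a high Mrc1 to a Lyve1 that was low only by a call near the thresholds. Lyve1 is also a gene of lymphatic endothelium, whose 5 markers, Pdpn among them, summed to 40.8 to 54.7 TPM in CT26NYESO1, 35.7 to 64.9 TPM in LL2, 124 to 134 TPM in CMS5a and 183 to 198 TPM in Renca. Line means of that sum were highest in EMT6, at 204.2 TPM, of which Pdpn alone held 203.9 TPM, and lowest in B16F1, at 6.87 TPM. Flt4 and Ccl21a, also among these markers, were at 2.22 TPM in CMS5a and 4.90 TPM in MC38OVA, where each was highest. High values of the sum thus mostly give Pdpn and say little of the other markers. Prox1, the defining factor, was listed at 0 in all libraries of EMT6, CT26 and CT26NYESO1. The 8 endothelial markers summed to 10.8 to 13.3 TPM in CT26NYESO1, 27.7 to 48.0 TPM in LL2, 118 to 140.4 TPM in CMS5a and 81.8 to 114 TPM in Renca. The part of endothelial RNA in the Lyve1 levels was not tested.

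Msr1, the scavenger receptor A gene on chromosome 8 from 39581685 to 39642673 (minus strand), had the widest range of line means on the log2(TPM + 1) scale. That scale compresses low genes. The ratio of highest to lowest mean TPM was 23.2 for Msr1, 34.5 for Lyve1, 51.7 for Cd163 and 151 for Retnla, whose lowest mean was 0.112 TPM. Msr1 was at 140.1, 181 and 138 TPM in EMT6 and 141, 117 and 130.3 TPM in LL2. MC38OVA was at 54.3, 125 and 106 TPM and MC38 at 37.9, 14.4 and 40.8 TPM. CT26, CT26NYESO1, CMS5a and Renca were at 25.5 to 85.3 TPM in their 12 libraries. B16F1 was at 4.59, 13.4 and 13.1 TPM and B16F10 at 3.94, 6.45 and 9.43 TPM, below every library of the other 8 lines. Msr1 was higher in EMT6 by 2.07 ± 0.29 (adjusted p = 1.2e-06), by 1.81 ± 0.29 in LL2 (adjusted p = 9.9e-06) and by 1.23 ± 0.29 in MC38OVA (adjusted p = 0.0010). It was lower in B16F1 by -2.23 ± 0.29 (adjusted p = 2.6e-07) and in B16F10 by -2.81 ± 0.29 (adjusted p = 3.3e-09). Without both melanomas the MC38OVA difference was 0.62 (adjusted p = 0.057), and without the second MC38OVA library it was just under the fold threshold (adjusted p = 0.028). In EMT6 Msr1 was the only member called higher: Mrc1 was at 43.0, 40.1 and 28.4 TPM there, and its Cd163, Folr2 and Lyve1 were not called in either direction.

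Marco, the other class A receptor, on chromosome 1 from 120474538 to 120505024 (minus strand), was low throughout. It was listed at 0 in all 12 libraries of CT26, CT26NYESO1, CMS5a and Renca, and reached 1 TPM in 7 of 30 libraries. LL2 was at 2.94, 1.07 and 1.52 TPM, MC38OVA at 2.36, 0.336 and 1.32 TPM, B16F10 at 0.684, 0.611 and 3.56 TPM, and B16F1 at 0.0885, 1.03 and 0.613 TPM. MC38 was at 0, 0.102 and 0.246 TPM and EMT6 at 0.0366, 0 and 0.0860 TPM. The 4 lines with the highest means were thus LL2, B16F10, MC38OVA and B16F1, at 1.84, 1.62, 1.34 and 0.579 TPM, and 2 of these were the lines with the lowest Adgre1. Marco was higher in LL2 by 1.10 ± 0.22 (adjusted p = 0.00021), and by 0.84 (adjusted p = 0.011) without the first LL2 library. A level of 0 in TPM without read counts has no known limit of detection. Any part of host strain in the Marco levels cannot be told apart from line.

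Mertk, on chromosome 2 from 128698956 to 128802894 (plus strand), had the clearest order of the members. It was at 23.5, 18.2 and 19.4 TPM in LL2, 7.37, 14.1 and 13.5 TPM in MC38OVA, 7.35, 7.03 and 6.15 TPM in MC38 and 5.25, 7.20 and 5.89 TPM in CT26. The 6 other lines lay at 0.922 to 3.37 TPM, with Renca lowest at 0.922, 1.41 and 1.68 TPM. LL2 was separate from MC38OVA, MC38OVA from MC38 by a narrow gap (7.37 against 7.35 TPM), and CT26 from EMT6, while the remaining 6 of 9 neighbouring pairs overlapped. Mertk was higher in LL2 by 2.31 ± 0.17 (adjusted p = 1.0e-11) and, by 1.43 ± 0.17, in MC38OVA (adjusted p = 9.5e-08). It was lower in Renca by -1.24 ± 0.17 (adjusted p = 5.1e-07) and in B16F10 by -1.21 (adjusted p = 6.3e-07), where scaling by median ratios gave -0.83 (adjusted p = 6.5e-05), under the fold threshold. Gas6, which encodes a ligand of Mertk, was highest in the line with the lowest Mertk, at 193 ± 28.2 TPM (SD, n = 3) in Renca against 2.03 to 32.6 TPM as line means elsewhere. Axl, the related receptor, was highest in CT26NYESO1 at 548 ± 48.8 TPM and CT26 at 490.0 ± 68.9 TPM (SD, n = 3 each). The cell source of Gas6 and Axl, and any tie of their levels to Mertk, was not tested.

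Retnla, on chromosome 16 from 48842551 to 48844461 (plus strand), varied widely between libraries of a line. LL2 was at 2.07, 42.5 and 6.27 TPM and B16F1 at 4.01, 25.8 and 10.2 TPM, in each case with 1 library far above the other 2. Mitochondrially encoded transcripts took 12.1, 39.0 and 18.6% of TPM in these B16F1 libraries and 18.3, 30.9 and 30.3% in those of LL2. The second B16F1 library, with the largest such share of all, also had the highest Mrc1, Folr2 and Adgre1 of its line. The part of library quality in these levels was not tested. MC38 was at 5.96, 0 and 1.84 TPM, CT26 at 0.971, 2.68 and 6.75 TPM and B16F10 at 2.19, 0 and 5.24 TPM. Renca was steady at 7.93, 6.51 and 6.81 TPM, and EMT6 was lowest at 0.336, 0 and 0 TPM. Retnla was lower in EMT6 by -2.33 ± 0.59 (adjusted p = 0.0020) and higher in B16F1 by 1.42 ± 0.59 (adjusted p = 0.042). The B16F1 call was lost without the second library of that line (0.81, adjusted p = 0.33) or the third (1.44, adjusted p = 0.10). It was also lost with a pseudocount of 0.1 (2.08, adjusted p = 0.068) and with no filter (1.42, adjusted p = 0.10). Leaving the related line out of the comparison gave 1.34 (adjusted p = 0.054). Il4, whose product induces Retnla, had its highest mean in B16F1, which was second to LL2 for Retnla by mean TPM, at 6.12 ± 3.12 TPM (SD, n = 3), against 1.21 to 2.96 TPM elsewhere, and Il13 was at or below a mean of 0.0856 TPM in every line. Eosinophils can also carry Retnla, and their 7 markers summed to 0.0493 to 2.91 TPM in the 30 libraries. Line means of that sum were highest in LL2, at 2.08 TPM, where Ccr3 among them was also highest, at 0.989 TPM. Epx, another of the 7, was listed at 0 in all 3 libraries of MC38, EMT6, LL2, CT26, CMS5a, Renca, B16F1 and B16F10. The part of eosinophils in the Retnla levels was not tested.

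Maf, on chromosome 8 from 115682942 to 115707794 (minus strand), had a narrow range. MC38OVA was highest at 25.1, 50.7 and 44.2 TPM, followed by Renca at 21.5, 33.1 and 31.4 TPM and LL2 at 25.0, 30.2 and 20.4 TPM. B16F10 was at 13.5, 8.18 and 10.5 TPM and B16F1 at 7.21, 15.4 and 6.30 TPM, with CT26 close to them at 10.3, 12.5 and 12.4 TPM. All 9 neighbouring pairs of lines overlapped. Maf was higher in MC38OVA by 1.18 ± 0.22 (adjusted p = 6.4e-05), which was 0.98 (adjusted p = 0.00022) without both melanomas and 0.99 (adjusted p = 0.0039) without the second MC38OVA library, and lower in B16F1 by -1.02 (adjusted p = 0.00024), which was -0.86 (adjusted p = 0.0021) after scaling by median ratios and -0.88 (adjusted p = 0.0054) and -0.80 (adjusted p = 0.011) without the first and the third B16F1 library. T cells carry Maf too, and the 8 T cell markers summed to 114 to 155 TPM in MC38OVA against 28.9 to 31.2 TPM in Renca and 18.2 to 30.3 TPM in LL2, and the part of T cells in the Maf levels was not tested.

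Relative to Adgre1 the picture of the lines changed. The ratio of TPM to that of Adgre1 in the same library gives each gene per unit of a general macrophage transcript. Cd163 per Adgre1 was 0.320, 0.322 and 0.411 in CT26 and 0.00804, 0.00408 and 0.0190 in MC38OVA, means that were 33.9-fold apart with no overlap. LL2, the highest line by level, was at 0.110, 0.168 and 0.128, below every CT26 library, and MC38 was at 0.0217, 0.0309 and 0.0156. Mrc1 per Adgre1 was 3.72, 3.19 and 2.50 in Renca, 2.73, 3.08 and 2.15 in CT26 and 1.35, 2.71 and 2.98 in CT26NYESO1. It was 1.06, 1.40 and 1.04 in LL2, 0.364, 0.719 and 0.509 in MC38OVA and 0.339, 0.330 and 0.626 in MC38, so that Renca and MC38 were 7.28-fold apart by their means. By mean ratio both receptors were lowest in MC38 and MC38OVA, and CT26, CT26NYESO1 and Renca held the 3 highest places, while by level LL2 led. Cd163 per Adgre1 was 0.164, 0.330 and 0.233 in CT26NYESO1 and 0.144, 0.215 and 0.145 in Renca, where it was not called (0.90, adjusted p = 0.096).

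**Figure D3:**
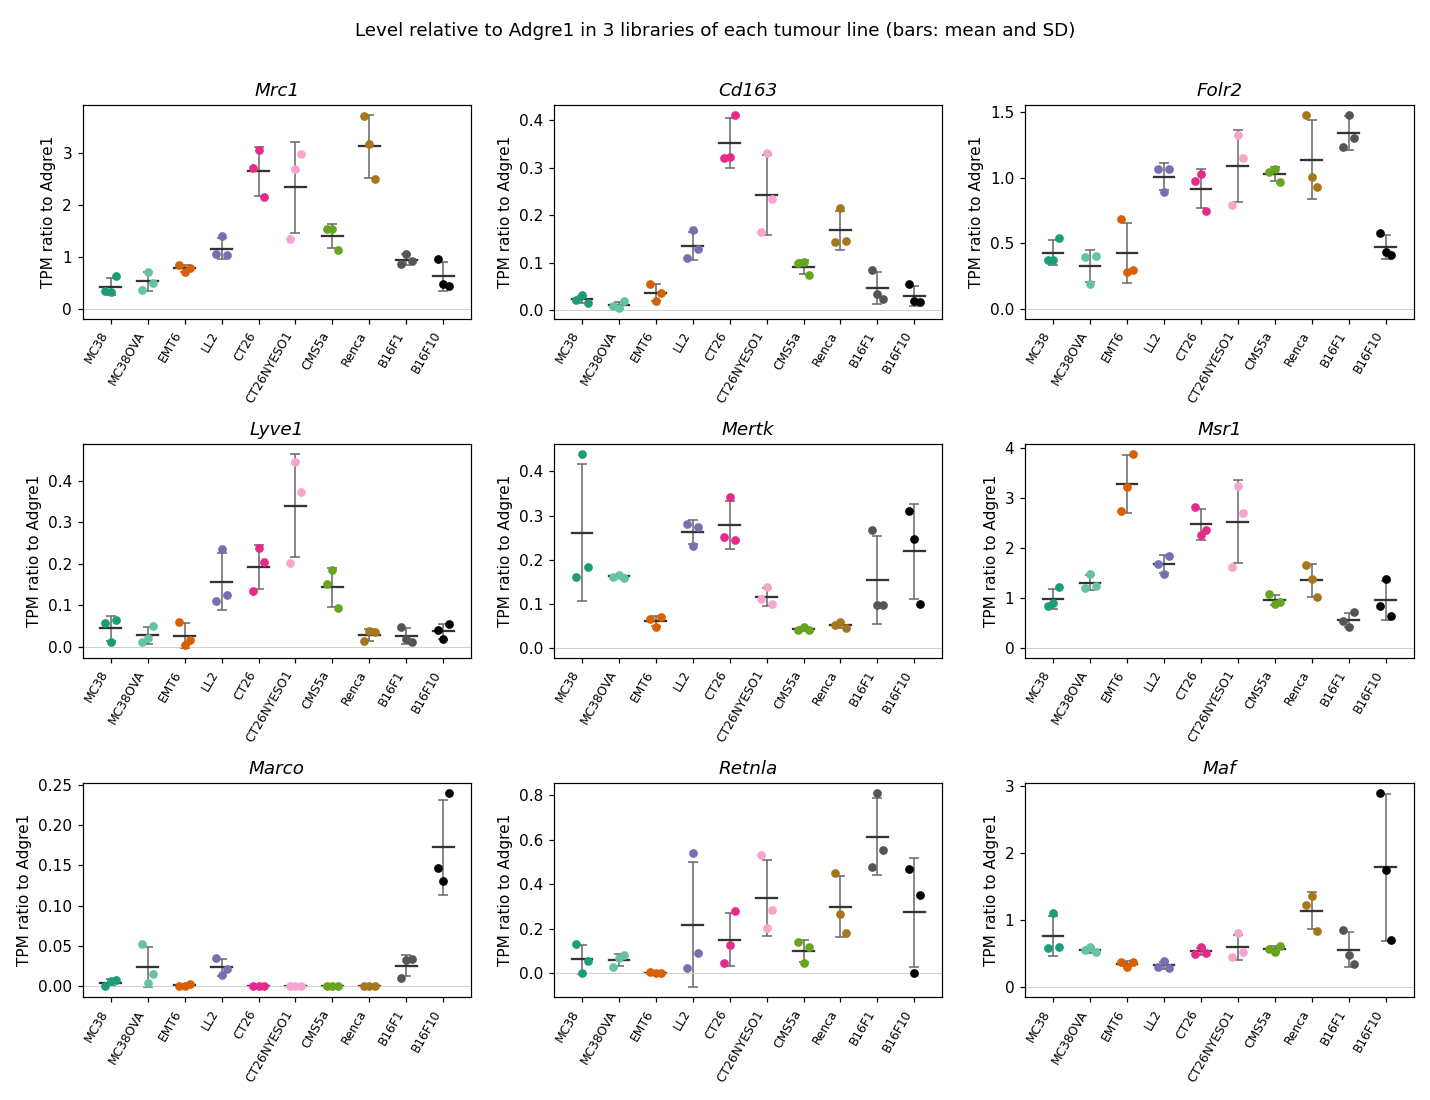
TPM of each member divided by that of Adgre1 in the same library, by line on linear axes, with 1 point per library and bars for the line mean and SD (n = 3). CT26 and CT26NYESO1 were highest for Cd163 and high for Mrc1 and Lyve1, EMT6 was highest for Msr1, and B16F10 for Marco and Maf.

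Folr2 per Adgre1 lay at 0.750 to 1.48 in all libraries of 6 lines and at 0.186 to 0.690 in those of 4 lines. The higher 6 were B16F1 (1.24, 1.48 and 1.31), Renca, CT26NYESO1, CMS5a, LL2 and CT26, and the lower 4 were B16F10, MC38, EMT6 and MC38OVA (0.399, 0.186 and 0.402). Lyve1 per Adgre1 was 0.0919 to 0.446 in the libraries of CT26NYESO1, CT26, LL2 and CMS5a and 0.00359 to 0.0638 in those of the other 6 lines. Msr1 per Adgre1 was 2.73, 3.22 and 3.88 in EMT6 and 0.548, 0.421 and 0.714 in B16F1. Mertk per Adgre1 was 0.252, 0.342 and 0.244 in CT26, 0.281, 0.232 and 0.275 in LL2, and 0.0412, 0.0485 and 0.0412 in CMS5a, where no library overlapped those of the former 2 lines. Maf per Adgre1 was lowest in LL2, at 0.299, 0.384 and 0.289, and ran from 0.706 to 2.90 in B16F10. Retnla per Adgre1 was 0.478, 0.811 and 0.555 in B16F1 and 0.00655, 0 and 0 in EMT6. Marco per Adgre1 was 0.146, 0.131 and 0.240 in B16F10 and at most 0.0519 in any other library.

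For a test, log2(Adgre1 + 1) was subtracted from log2(TPM + 1) of each gene in each library. All genes of a library then share its Adgre1 variation, and limma draws the spread of each gene toward that of other genes. Adjusted p-values relative to Adgre1 may therefore understate the spread of a single gene between libraries. All 9 members differed between lines on this scale, as did 98.6% of 17943 genes, with a median range of 2.79 for members and 3.30 for all genes. Of 90 combinations of member and line, 28 passed, 13 higher and 15 lower, against 38.2% over all genes. Since subtraction moves every gene by the Adgre1 difference of a line, 80.9% of all genes were lower in LL2 and 81.0% higher in B16F10, and calls were read against these shares. In LL2 1 member, Maf, was lower, at -1.01 (adjusted p = 0.018), and the members' median was 0.29 against -1.58 for all genes. The Maf difference there was -0.13 (adjusted p = 0.75) with Adgre1 as a covariate and also missed the threshold in many of the fits without 1 library. In B16F10 3 members were higher, Marco at 2.98 (adjusted p = 4.1e-13), Maf at 1.36 (adjusted p = 0.0014) and Retnla at 1.26 (adjusted p = 0.0027), with a median of 0.68 against 1.67 for all genes. For Marco, listed at 0 in 14 of 30 libraries, the pseudocount leaves little of the gene's own variation, so that its value on this scale mostly carries the level of Adgre1. With Adgre1 as a covariate the B16F10 difference of Maf was 0.12 (adjusted p = 0.76) and that of Retnla 1.60 (adjusted p = 0.11), and without the first B16F10 library they were 0.95 (adjusted p = 0.070) and 0.89 (adjusted p = 0.084).

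In MC38OVA 5 members were lower relative to Adgre1, beside 70.1% of all genes, and the medians were -1.22 and -1.29. Cd163 at -2.48 (adjusted p = 2.8e-08) and Lyve1 at -1.58 (adjusted p = 0.00031) kept their calls in every alternative and without any 1 library. Folr2 at -1.33 (adjusted p = 0.0026), Retnla at -1.26 (adjusted p = 0.0037) and Mrc1 at -1.22 (adjusted p = 0.0056) did not. Without the second MC38OVA library Folr2 was at -0.97 (adjusted p = 0.082), and without the first Mrc1 was at -0.99 (adjusted p = 0.059) and Retnla at -1.0 (adjusted p = 0.052). MC38 had 2 lower members, where 2.91% of all genes were lower and 6.64% higher: Mrc1 at -1.50 (adjusted p = 0.0051) and Cd163 at -1.16 (adjusted p = 0.045). Without the first MC38 library Mrc1 was at -1.35 (adjusted p = 0.078), and the Cd163 call was lost without any of many single libraries, with -0.97 (adjusted p = 0.27) without the first of MC38. In EMT6 5 members were lower beside 27.8% of all genes and Msr1 was higher by 1.35 (adjusted p = 0.0077) beside 4.05%. Retnla at -3.06 (adjusted p = 5.7e-12) was the EMT6 call that held in all alternatives and without any single library. By level the same difference was -2.33 ± 0.59 (log2, SE, adjusted p = 0.0020), so the smaller p relative to Adgre1 is no measure of Retnla's own spread. Without the second EMT6 library Msr1 was at 1.35 (adjusted p = 0.063) and Lyve1 at -1.08 (adjusted p = 0.13), against -1.56 (adjusted p = 0.0012) with it. The other EMT6 calls were those of Marco at -1.17 (adjusted p = 0.014), Mertk at -1.16 (adjusted p = 0.020) and Cd163 at -1.15 (adjusted p = 0.020). Without the second EMT6 library Marco was at -1.02 (adjusted p = 0.15), Mertk at -1.0 (adjusted p = 0.17) and Cd163 at -0.86 (adjusted p = 0.23).

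In CT26, where 16.2% of all genes were higher and 1.95% lower relative to Adgre1, Cd163 was higher by 1.94 (adjusted p = 3.5e-05), Mrc1 by 1.33 (adjusted p = 0.011) and Lyve1 by 1.16 (adjusted p = 0.026). CT26NYESO1, with 12.7% of all genes higher and 2.46% lower, had Lyve1 at 1.90 (adjusted p = 7.0e-05), Cd163 at 1.37 (adjusted p = 0.0077) and Retnla at 1.29 (adjusted p = 0.014). Of these 6 calls, Cd163 in CT26 and Lyve1 in CT26NYESO1 held under every alternative. With Ptprc as the denominator Mrc1 in CT26 was at 0.59 (adjusted p = 0.39), Lyve1 in CT26 at 0.42 (adjusted p = 0.55), Cd163 in CT26NYESO1 at 0.87 (adjusted p = 0.15) and Retnla in CT26NYESO1 at 0.79 (adjusted p = 0.32). These 4 calls were also lost without a single library: Mrc1 in CT26 was at 1.30 (adjusted p = 0.10) and Lyve1 at 1.34 (adjusted p = 0.072) without the first CT26 library, Cd163 in CT26NYESO1 at 1.14 (adjusted p = 0.19) without the second of that line, and Retnla there at 0.96 (adjusted p = 0.26) without the first. Renca had Mrc1 higher by 1.60 (adjusted p = 0.0010), which held throughout, and Retnla by 1.09 (adjusted p = 0.035), at 0.77 (adjusted p = 0.40) without the first Renca library, beside 15.6% of all genes higher and 6.29% lower. In CMS5a Mertk was lower by -1.44 (adjusted p = 0.0051) beside 11.5% of all genes lower and 4.21% higher, and at -1.39 (adjusted p = 0.063) and -1.41 (adjusted p = 0.061) without the first and the second CMS5a library. B16F1 had Retnla higher by 2.25 (adjusted p = 4.8e-07) beside 29.5% of all genes, and Msr1 lower by -1.40 (adjusted p = 0.0039) beside 4.12%, which was -0.19 (adjusted p = 0.64) per Ptprc.

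**Figure D4:**
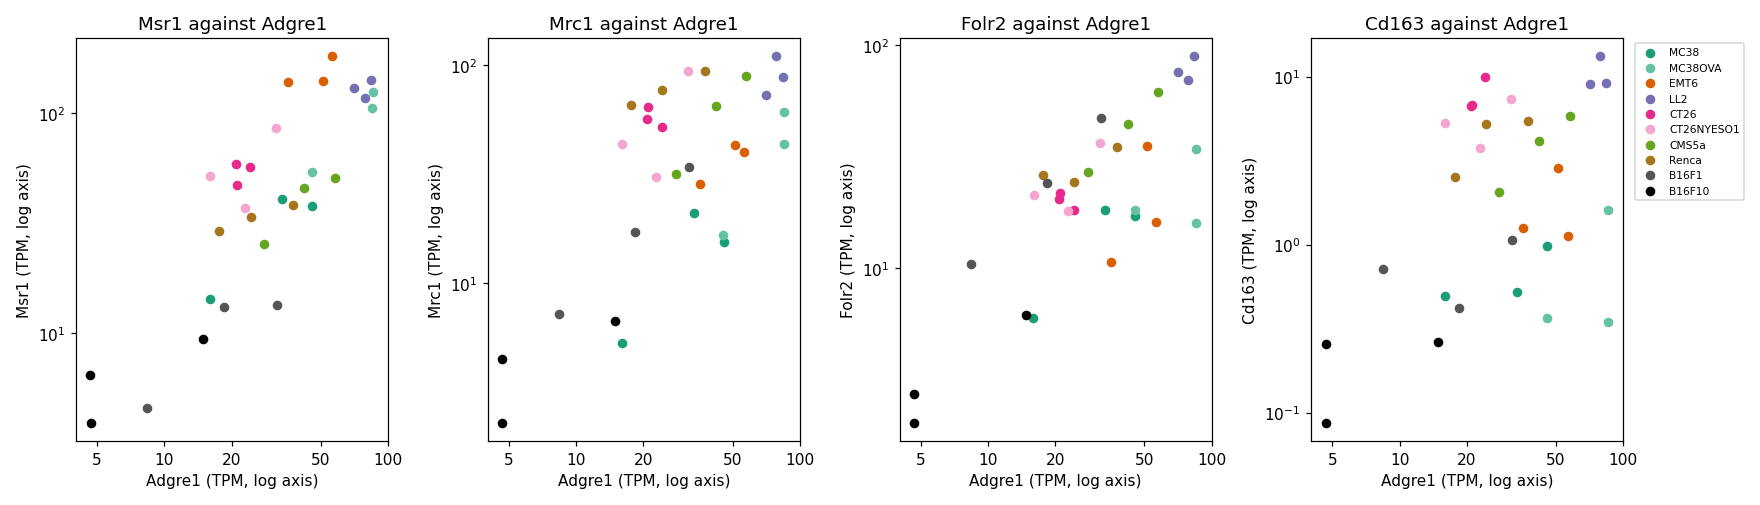
TPM of Msr1, Mrc1, Folr2 and Cd163 against that of Adgre1 on log axes, with 1 point per library coloured by line. Over the 10 line means of log2(TPM + 1), Msr1 followed Adgre1 most closely (r = 0.87) and Cd163 least of the 4 (r = 0.38), with CT26 above and MC38OVA below the other lines for Cd163 at their Adgre1 levels.

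Lines of shared origin were set against each other next. Of 27 combinations of member and pair, 4 passed, against 8.16% over all genes in the 3 pairs. MC38OVA exceeded MC38 in Msr1, by 1.63 ± 0.39 (log2, SE, adjusted p = 0.025), where 1.14% of all genes were higher, and the members' median difference was 0.84 against -0.03. The 3 Msr1 values of MC38OVA, 54.3 to 125 TPM, all lay above those of MC38, 14.4 to 40.8 TPM. Adgre1 had means of 71.9 TPM in MC38OVA and 31.7 TPM in MC38, Ptprc of 154 and 69.4 TPM, and the 9 general macrophage genes summed to means of 2351 and 768 TPM. Msr1 per Adgre1 was 1.19, 1.47 and 1.24 in MC38OVA and 0.831, 0.901 and 1.22 in MC38, which overlap. The adjusted p of the Msr1 difference by level was 0.30, at 1.17, without the second MC38 library, and 0.063, at 1.67, with a pseudocount of 0.1. The call was also lost without the second MC38OVA library (1.39, adjusted p = 0.23) or the third (1.51, adjusted p = 0.15). With no filter it was just missed (1.63, adjusted p = 0.051). B16F10 was below B16F1 in Folr2 by -2.48 ± 0.46 (adjusted p = 9.4e-05), in Mrc1 by -1.75 ± 0.51 (adjusted p = 0.0069) and in Retnla by -2.08 ± 0.79 (adjusted p = 0.038), where 16.4% of all genes were lower and 4.53% higher. Folr2 and Mrc1 did not overlap between the 2 melanomas, and Retnla did. Adgre1 had means of 8.07 TPM in B16F10 and 19.6 TPM in B16F1, and the 9 general macrophage genes summed to means of 272 and 796 TPM. Per Adgre1, Mrc1 overlapped, at 0.449 to 0.957 in B16F10 against 0.859 to 1.07 in B16F1. Folr2 per Adgre1 did not (0.412 to 0.581 against 1.24 to 1.48), nor did Retnla (0 to 0.468 against 0.478 to 0.811). The Mrc1 difference was -1.24 (adjusted p = 0.059) without the second B16F1 library and -1.42 (adjusted p = 0.053) without the second B16F10 library. The Retnla difference was -1.47 (adjusted p = 0.18) without the former and -1.36 (adjusted p = 0.24) without the latter. The Retnla call was also lost without the third B16F1 library (adjusted p = 0.069) or the first B16F10 library (adjusted p = 0.057). With no filter it was at -2.08 (adjusted p = 0.0998), and after scaling by median ratios at -2.01 (adjusted p = 0.060). The melanocyte markers were higher in B16F10 than in B16F1 for 4 of 6 genes, and the part of tumour RNA in these differences was not tested.

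Between CT26NYESO1 and CT26 no member passed both thresholds, where 0.379% of all genes were higher and 1.89% lower. Mertk came nearest, with a difference of -0.97 (adjusted p = 0.0079), from 5.25, 7.20 and 5.89 TPM in CT26 to 2.52, 2.21 and 3.12 TPM in CT26NYESO1, with no overlap. In MC38OVA against MC38 the same gene differed by 0.65 (adjusted p = 0.15). The difference between these 2 antigen pairs was 1.62 ± 0.32 for Mertk (adjusted p = 0.0029), the 1 member of 9 that passed, against 2.62% of all genes, 2.22% in that direction. Beside the count of 0 by limma in the CT26 pair, 1 member, Mertk, had an unadjusted p under 0.05.

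Over the 10 line means of log2(TPM + 1), the members resembled each other to different degrees, given here as a description because the points share libraries and the total of TPM. Mrc1 was closest to Folr2 (Pearson r = 0.87) and Cd163 (r = 0.86). Cd163 had r = 0.81 with Lyve1 and 0.73 with Folr2, and Msr1 had 0.87 with Adgre1. Folr2 and Maf each had r = 0.75 with Adgre1, Mertk 0.68, Mrc1 0.67 and Lyve1 0.52. After subtraction of Adgre1, Mrc1 and Cd163 still had r = 0.83, Cd163 and Lyve1 0.81, Mrc1 and Folr2 0.75 and Folr2 and Retnla 0.70, values that share the subtracted gene.

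**Figure D5:**
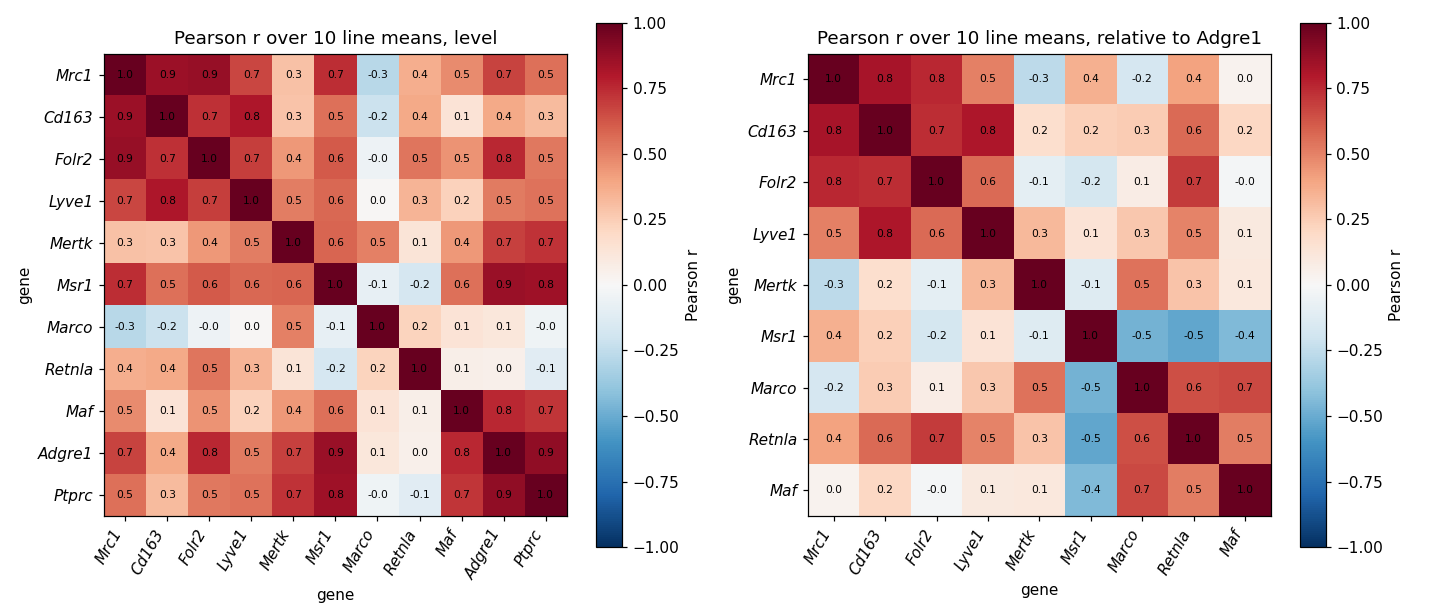
Pearson correlation between members, Adgre1 and Ptprc over 10 line means of log2(TPM + 1), by level at left, and between members after subtraction of Adgre1 at right. At left the highest values are those of Adgre1 with Ptprc (0.89), Mrc1 with Folr2 (0.87), Msr1 with Adgre1 (0.87) and Mrc1 with Cd163 (0.86), and Marco and Retnla correlate weakly with Adgre1 (0.11 and 0.05).

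Among 13886 tested genes with usual symbols, the gene most like each member was found by Pearson r over the 10 line means. F13a1, which encodes the coagulation factor XIII A chain and marks resident macrophages, was most like Mrc1 (r = 0.945), and was at 97.1 ± 11.1 TPM in LL2 against 5.58 ± 1.92 TPM in B16F10 (SD, n = 3 each). Mcu (0.936) and Unc50 (0.935), on no list of macrophage genes used here, were nearly as close to Mrc1. Cysltr1, a leukotriene receptor gene, was most like Msr1 (r = 0.99), followed by Pid1 (0.98) and the protease gene Ctsc (0.97), and 119 genes exceeded 0.9 for Msr1. Marco was most like Cd5l (r = 0.91), a secreted macrophage protein gene of the resident list, whose line means were 0.0479 to 1.39 TPM. The highest of these, in B16F10, had an SD of 1.77 TPM. Eps8l1 (0.90) and Paqr8 (0.88) followed, and by Spearman rho both were closer to Marco (0.93 and 0.86) than Cd5l was (0.67). Maf was most like Tmem150b (0.96), then Itgax (0.94), which encodes CD11c, and Cd300a (0.92). For Cd163 it was Galnt1 (0.96), for Folr2 Izumo4 (0.97), for Lyve1 Slc38a4 (0.96), for Mertk Usp32 (0.96) and for Retnla Iffo1 (0.90). The values are the highest of 13886 each over 10 points, and Retnla's next gene, Oxsm, was at 0.85.

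Of 17 tested genes of a list of other resident macrophage genes, 8 were higher in LL2, 8 in CMS5a and 7 in Renca, with none lower in these lines, where 7.98%, 9.23% and 12.4% of all genes were higher. In MC38 8 were lower and in B16F10 9, beside 4.06% and 23.2% of all genes. Cbr2, a carbonyl reductase gene, was at 98.0 ± 13.3 TPM in LL2 and 4.39 ± 3.40 TPM in MC38 (SD, n = 3 each). Ltc4s, which makes leukotriene C4, was at 29.7 ± 4.79 TPM in LL2 and 0.520 ± 0.461 TPM in B16F10. Selenop, a selenium carrier, was at 1309.6 TPM in Renca against 32.9 TPM in MC38, and the growth factor gene Igf1 at 40.6 ± 15.9 TPM in CMS5a against 0.360 TPM in MC38. Selenop and Igf1 are also made by other cells, fibroblast markers were highest in CMS5a, and the cell source of both was not tested. Renca was thus low in Mertk and, by a call near the thresholds, in Lyve1 among the members, while 7 of the other resident genes were higher there.

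Of 13 tested genes for other scavenger receptors, 8 were higher and 1 lower in LL2 (7.98% and 6.53% of all genes), 5 higher and 1 lower in EMT6 (10.2% and 4.70%) and in MC38OVA (10.2% and 3.59%), and 7 lower in B16F10 (23.2%). Colec12, a scavenger receptor of the collectin type, was at 106 TPM in EMT6 and 0.152 TPM in B16F10, and Scara3 at 65.4 TPM in LL2 and 0.0293 TPM in B16F10. Lrp1, a receptor for many ligands, was at 204 TPM in LL2 and 5.53 TPM in B16F10. Colec12, Scara3, Scara5 and Lrp1 are also carried by fibroblasts and other stroma, whose markers were among the highest in LL2, and the cell source was not tested. Of 12 genes for uptake of dying cells, 4 were higher in CMS5a (9.23% of all genes), 3 in LL2 (7.98%) and 3 in Renca (12.4%), and 7 were lower in B16F10 (23.2%). Of 9 general macrophage genes, 6 were higher in LL2 (7.98% of all genes), 6 in MC38OVA and 5 in EMT6 (10.2% each), and 9 were lower in B16F10 (23.2%) and 6 in B16F1 (13.2%).

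Alternative activation genes, to which Retnla belongs by its induction, did not share 1 order of lines. Of 14 tested, 5 were higher and 1 lower in MC38OVA (10.2% and 3.59% of all genes), 4 higher in LL2 (7.98%), 4 higher and 2 lower in Renca (12.4% and 10.5%), 3 higher and 3 lower in EMT6 (10.2% and 4.70%), and 5 lower in B16F10 (23.2%). Arg1, which encodes arginase 1, was at 397 TPM in LL2, 309 TPM in EMT6 and 4.64 TPM in Renca. Mgl2, a lectin gene, was at 97.2 ± 25.4 TPM in Renca (SD, n = 3) and 0.716 TPM in EMT6, and Chil3, which encodes a chitinase-like protein, at 104 TPM in MC38OVA and 0.349 TPM in CT26NYESO1. Renca had the lowest mean of Arg1 and the highest of Mgl2, and EMT6 had the lowest of Mgl2 and of Retnla. Of 12 macrophage transcription factor genes, 5 were higher and 1 lower in MC38OVA, 4 higher in LL2, 4 higher and 1 lower in Renca, and 9 lower in B16F10, beside the same shares of all genes.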

How the data were processed

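The deposited table holds TPM made by the authors, with Trim Galore 0.6.5 for trimming, STAR 2.7.3a for alignment, StringTie 2.1.2 for quantification and mm10 as the build, per the submitters' processing notes. Annotation and use of strand are not given in the sources used here. Each library sums to 1000000 TPM, so read depth is unknown. Columns were matched to libraries by title, and 0 were left unused.

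From these values log2(TPM + 1) was computed, and the 17944 genes that reached 1 TPM in 3 or more libraries entered a limma 3.58.1 fit (trend, R 4.3.3) on line, which leaves 20 residual degrees of freedom. The pseudocount understates changes of low genes. Benjamini-Hochberg adjustment ran over all genes within a comparison, and a call needed an adjusted p under 0.05 and a log2 size of 1. Relative to Adgre1, log2(Adgre1 + 1) of the same library was subtracted from every gene, leaving 17943. SE come from the fit, and SD from 3 libraries. Where an adjusted p is printed without a named tool, it is from this limma fit. The fit by level was run on simulated data with changes planted in LL2 among well-expressed genes. That run covered neither low genes, as several members are, nor the scale relative to Adgre1. Alternatives were a pseudocount of 0.1, no filter, scaling by median ratios (as size factors on TPM), the replicate number as a block, fits without both melanomas, without the related line or with the 6 libraries of a pair alone, other denominators (5 macrophage genes, or Ptprc), Adgre1 as a covariate, and leaving out each library.

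The members and the gene lists were chosen with earlier results of these data known. Genes named are the 9 members, Adgre1, Ptprc, the 3 genes most like each member, up to 4 genes of each list with the largest range of line means, and genes with a known tie to a member (Gas6, Axl, Il4, Il13, Prox1, Epx, F13a1, Cd5l), of which those outside the rule were chosen after their values were seen. Gene positions are those of GENCODE M21. Same-numbered libraries of different lines did not deviate together (mean correlation 0.0043 over 135 pairs), so numbers were not taken as pairs.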

Additional observations from a re-analysis of the deposited data

Results flagged for a closer look

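Mertk, the receptor for engulfment of dying cells, was the 1 member whose difference between an antigen-carrying line and its parent differed between the MC38 and the CT26 pair. The difference between the pairs was 1.62 (log2, adjusted p = 0.0029, limma). In MC38OVA the level was 7.37, 14.1 and 13.5 TPM against 7.35, 7.03 and 6.15 TPM in MC38, higher in 3 of 3 libraries. In CT26NYESO1 it was 2.52, 2.21 and 3.12 TPM against 5.25, 7.20 and 5.89 TPM in CT26, lower in 3 of 3. Neither pair alone passed both thresholds, at 0.65 and -0.97. Adgre1 had means of 71.9 TPM in MC38OVA and 31.7 TPM in MC38, and Ptprc of 154 and 69.4 TPM. Per Adgre1, Mertk was 0.162, 0.166 and 0.159 in MC38OVA against 0.161, 0.440 and 0.184 in MC38, so that the direction of the means turned in that pair. It was 0.110, 0.138 and 0.0990 in CT26NYESO1 against 0.252, 0.342 and 0.244 in CT26. The difference between the pairs was not tested relative to Adgre1.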

How the results depend on the processing

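No called value of a member changed sign under any alternative, while some values that were not called did, such as Msr1 in CT26, from 0.44 to -0.20. Over the lines, 9 of 9 members passed in every setting by level; relative to Adgre1 it was 8 without both melanomas, where Marco had a range of 1.0 (adjusted p = 0.17). Of the 34 line calls by level, 20 held in every alternative and without every single library, and of the 28 relative to Adgre1, 8 did. By level the count was 42 with a pseudocount of 0.1, 32 without a filter and 30 after scaling by median ratios, and 30 to 35 without single libraries. Without both melanomas it was 21 of 72, where 22 calls of the main analysis lay: 17 kept, 5 lost and 4 gained. For the related lines the count of 4 became 2 with no filter, and 2 to 6 without single libraries, 2 without the second library of B16F1 or of B16F10. The count of 1 for the difference between antigen pairs was 1 to 2 without single libraries, and 2 without the first MC38OVA library. Relative to Adgre1, the 28 calls became 37 with 5 macrophage genes as denominator, 41 with Ptprc, 27 with Adgre1 as covariate and 23 to 32 without single libraries. With the replicate number as a block the counts were 34, 4 and 28, and no member call changed; 10 of 30 libraries lay closest to their own number.

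Over all genes, a pseudocount of 0.1 raised the calls in each of the 10 lines by 1.56 to 1.88 times, and lowered those of MC38OVA against MC38 from 235 to 56 higher and 10 lower, with 124 higher and 17 lower without a filter and 415 higher and 69 lower from the 6 libraries alone. For B16F10 against B16F1 it gave 1114 higher and 4582 lower, and scaling by median ratios moved the share of higher calls from 21.7% to 41.7%. In EMT6 a pseudocount of 0.1 moved that share from 68.5% to 53.3%. Relative to Adgre1 the choice of denominator or covariate sets these shares, as for MC38, where 69.5% of calls were higher per Adgre1 and 3.78% per Ptprc, and for B16F10, 98.3% per Adgre1 and 16% with it as covariate. TPM keep no depth, so values near 0, as for Marco, have unknown precision.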
